A study of Oryza sativa Japonica Group with 9 samples.

Results

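The genes described are the rice cellulose synthase catalytic subunits CESA1 to CESA9, taken as every probe set that the array annotation pairs with one of them. That gave 13 probe sets for 9 genes, of 57258 probe sets tested. CESA4 (LOC4324625), CESA7 (LOC4348853) and CESA9 (LOC4347093), the secondary wall genes, held 4 of these probe sets, and the 6 primary wall genes held 9. CESA1, CESA2, CESA3 and CESA4 had a pair of probe sets each, and the other genes had 1. Where a gene had a pair, the one with the higher mean over all arrays is called its brighter set and stands for the gene.

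Cellulose is made at the plasma membrane by rosette-shaped complexes built from CESA proteins, each of which uses UDP-glucose to extend a glucan chain. Complexes of different CESA isoforms serve the thin primary wall of growing cells and the thick secondary wall laid down later in vessels and fibres. In rice, mutations in the secondary wall isoforms CESA4, CESA7 and CESA9 give brittle culms, and CESA1, CESA3 and CESA8 are commonly counted as the main primary wall isoforms. A root cortical cell that takes in an arbuscular mycorrhizal fungus surrounds the branched fungal structure, the arbuscule, with newly made membrane and a thin matrix.

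Transcripts were measured on 9 rice arrays, 3 for each of 3 populations of root cortical cells cut out with a laser microbeam, with about 2000 cells per sample. All plants were of the japonica cultivar Nipponbare and were harvested at 7 weeks. Arbusculated cells contained arbuscules and systemic cells were their fungus-free neighbours, both from roots given 250 spores of Rhizophagus irregularis at planting, while mock cells came from roots without the inoculum. What the mock treatment held, whether arbusculated and systemic cells shared plants, and whether replicates came from separate plants is not stated in the labels, so p-values measure only the spread between these samples.

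The deposited values are on a log2 scale, so a difference of 1 is a doubling, and they allow a probe set to be compared between arrays but not with another probe set. RNA quality was read from control probe sets at both ends of transcripts, and their 3' minus 5' difference averaged 0.32 ± 0.11 (SD, n = 3) on the mock arrays, 0.20 ± 0.32 on the systemic arrays and 0.78 ± 0.45 on the arbusculated arrays. Mock 2 had a mean correlation of 0.853 with the other mock arrays and of 0.866 with the arrays of the other groups, across probe sets, which are not independent. A probe set of PT11, which carries phosphate from the arbuscule into the plant cell, read 8.30 to 9.43 on the arbusculated arrays and 3.55 to 4.37 on the 6 others, but the gene's other 3 probe sets did not all show this. No marker of the cortex itself was on the lists used, so the cortical identity of the mock and systemic samples was not checked against one. In such samples, fewer cells of a type and less RNA per cell cannot be told apart.

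In mock cells every one of the 9 genes, by its representative, had its highest group mean, which was so for 23.7% of all probe sets. The dimmer sets did not share this. Those of CESA1 and CESA3 had their highest mean in arbusculated cells, and those of CESA2 and CESA4 in systemic cells. No CESA probe set passed the test in any comparison. In limma, with Benjamini-Hochberg adjustment over all 57258 probe sets at 0.05, arbusculated against mock cells gave 0 of 13 CESA probe sets (0.187% of all probe sets passed), systemic against mock 0 of 13 (0% of all) and arbusculated against systemic 0 of 13 (0.246% of all). The moderated F test for any difference among the groups also gave 0 of 13, against 0.173% of all probe sets, and at an unadjusted p under 0.05 it gave 2, CESA4 (brighter set) and CESA7, against 16.3% of all. The differences below are therefore given as values, with their errors, and none is a called change.

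At an unadjusted p under 0.05 in limma, 2 CESA probe sets lay lower in arbusculated than in mock cells, where 14.2% of all probe sets passed and 8.12% passed and were lower. For systemic against mock cells the count was 2, both lower, where 4.34% of all passed and 2.54% passed and were lower. For arbusculated against systemic cells it was 1, lower, where 23.9% of all passed and 15.7% passed and were lower. A count of 2 in 13 for arbusculated against mock cells is close to the share among all probe sets. The comparisons of arbusculated and of systemic cells with mock cells use the same 3 mock arrays, so their values are set side by side without being read as 2 separate sightings.

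Of the secondary wall genes, CESA4 was read by its brighter probe set at 8.26, 8.01 and 9.09 on mock arrays 1, 2 and 3, at 6.69, 7.20 and 7.45 on the systemic arrays and at 7.49, 7.49 and 6.99 on the arbusculated arrays. All 3 mock arrays lay above all 6 arrays of colonised roots, and the systemic and arbusculated values overlapped. Against mock, arbusculated cells differed by -1.13 ± 0.33 (log2, SE; n = 3 per group; 95% interval -1.90 to -0.37), a 2.19-fold lower level, with an adjusted p of 0.282 by limma. Systemic cells differed from mock by -1.34 ± 0.33 (-2.10 to -0.57), a 2.53-fold lower level, with an adjusted p of 0.969. Mock was the highest group, while the order of the remaining groups was within their spread, with a difference of 0.21 ± 0.33 (arbusculated minus systemic).

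CESA7 read 7.87, 7.21 and 8.49 on the mock arrays, 6.51, 7.49 and 6.94 on the systemic arrays and 6.69, 6.10 and 6.69 on the arbusculated arrays. The arbusculated arrays lay below all mock arrays, and systemic 2 reached into the mock range. The difference of arbusculated from mock cells was -1.36 ± 0.38 (95% interval -2.24 to -0.49), 2.57-fold lower, with an adjusted p of 0.273 by limma. For systemic cells it was -0.88 ± 0.38, with an adjusted p of 0.969. Among all probe sets ordered by their difference between arbusculated and mock cells, CESA7 stood at percentile 1.04 and the brighter CESA4 set at percentile 1.91, counted from the lowest. In systemic against mock cells CESA7 stood at 5.32, the brighter CESA4 set at 1.88 and the dimmer at 66.5. The primary wall sets there ran from 1.79 (dimmer CESA3 set) to 80 (dimmer CESA2 set), with CESA6 at 2.53, the brighter CESA1 set at 2.69 and CESA5 at 2.75. Such positions take no account of the errors.

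CESA9 read 5.70, 5.95 and 6.46 on the mock arrays, 5.00, 5.98 and 5.83 on the systemic arrays and 5.63, 5.83 and 5.12 on the arbusculated arrays. The 3 groups overlapped, and only mock 3 stood above every other array. Its differences from mock were -0.51 ± 0.34 (95% interval -1.28 to 0.26) in arbusculated and -0.43 ± 0.34 (-1.21 to 0.34) in systemic cells. Across the secondary wall genes the median difference from mock was -1.13 in arbusculated cells and -0.88 in systemic cells, beside medians of -0.12 and 0.07 over all probe sets.

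The differences of CESA4, by its brighter set, and of CESA7 were smallest without mock 3, the array on which both were highest. Without it arbusculated cells differed from mock by -0.82 for CESA4 and -1.05 for CESA7, and without mock 2 by -1.35 and -1.69. The signs stayed below 0 for the brighter CESA4 set, CESA7 and CESA9 in both comparisons with mock. This held under the 10 alternatives that can move a difference of group means (the other 8 run on each leave it as it is). The dimmer CESA4 set stayed below 0 in arbusculated against mock cells (-0.63 to -0.28). In systemic against mock cells it stayed above 0 (0.02 to 0.30). For arbusculated against mock cells, adjusted p by limma ranged from 0.163 to 0.569 for the brighter CESA4 set and from 0.131 to 0.552 for CESA7.

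Of the main primary wall isoforms, CESA1 (LOC4337958) was read by its brighter probe set at 8.18, 7.62 and 7.35 on the mock arrays, 6.32, 6.47 and 6.83 on the systemic arrays and 7.70, 5.18 and 7.80 on the arbusculated arrays. Mock and systemic arrays did not overlap, whereas arbusculated 1 and 3 lay within the mock range and arbusculated 2 lay below every other array. Systemic cells differed from mock by -1.18 ± 0.64 (95% interval -2.64 to 0.29, adjusted p = 0.969 by limma). Arbusculated cells differed from mock by -0.82 ± 0.64, which became 0.04 without arbusculated 2.

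CESA3 (LOC4343049), by its brighter set, read 9.28, 8.82 and 8.56 on the mock arrays, 8.02, 8.80 and 7.48 on the systemic arrays and 8.99, 7.91 and 9.19 on the arbusculated arrays. Arbusculated 2 was again the lowest of its group, and all groups overlapped. Systemic cells differed from mock by -0.78 ± 0.44 and arbusculated cells by -0.19 ± 0.44. The second value turned to 0.20 without arbusculated 2.

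CESA8 (LOC4342699) read 7.23, 8.22 and 6.91 on the mock arrays, 6.69, 8.16 and 6.84 on the systemic arrays and 8.13, 6.11 and 7.45 on the arbusculated arrays. Each group held 1 array above 8, and the groups overlapped over nearly their whole range. Systemic and arbusculated cells shared a mean of 7.23, and both differed from the mock mean of 7.45 by -0.22 ± 0.61 (95% interval -1.61 to 1.16). Without arbusculated 2 the arbusculated value was 0.34.

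The other primary wall isoforms are CESA2, CESA5 and CESA6. CESA5 (LOC4334710) read 8.39, 7.45 and 7.53 on the mock arrays, 5.98, 7.62 and 6.27 on the systemic arrays and 7.84, 7.01 and 7.45 on the arbusculated arrays. Systemic 1 and 3 were the lowest arrays, but systemic 2 lay within the mock range. Systemic cells differed from mock by -1.17 ± 0.46 (95% interval -2.23 to -0.11, adjusted p = 0.969 by limma), and arbusculated cells by -0.36 ± 0.46.

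CESA6 (LOC4342850) read 8.56, 6.86 and 6.03 on the mock arrays, 6.21, 6.19 and 5.43 on the systemic arrays and 7.47, 5.87 and 5.70 on the arbusculated arrays. Its mock arrays spread over 2.53 log2 units, more than the difference of any group from another. Systemic cells differed from mock by -1.21 ± 0.68 and arbusculated cells by -0.80 ± 0.68.

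CESA2 (LOC4334515), by its brighter set, read 7.50, 6.67 and 6.48 on the mock arrays, 6.16, 5.38 and 7.09 on the systemic arrays and 6.51, 6.39 and 6.36 on the arbusculated arrays. The arbusculated arrays were the tightest, within 0.15 log2 units of each other, and the groups overlapped. The differences from mock were -0.67 ± 0.43 in systemic and -0.46 ± 0.43 in arbusculated cells.

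Over the 6 primary wall genes, by their representatives, the median difference from mock was -0.98 in systemic and -0.41 in arbusculated cells. In each, 6 of 6 were below 0, where 41.3% and 58.8% of all probe sets were. Of the dimmer sets, CESA2 was above 0 in systemic cells (0.31), and CESA1 (0.32) and CESA3 (0.13) in arbusculated cells. Systemic cells had the lowest group mean in 5 of the 6 primary wall genes, CESA8 being the exception by less than 0.01 log2 units, and in CESA4 among the secondary wall genes. That made 6 of 9 genes, where 25.7% of all probe sets had their lowest mean in systemic cells. Arbusculated cells had the lowest mean in CESA7, CESA9 and CESA8, where 50.7% of all probe sets did. Of arbusculated against systemic cells, the median was 0.38 over the primary and -0.08 over the secondary wall genes, beside -0.17 over all probe sets.

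Over the 13 probe sets the 95% interval of the difference lay wholly below 0 for 2 probe sets in arbusculated against mock and 2 in systemic against mock cells. In arbusculated against systemic cells it did so for 1, and it lay wholly above 0 for 0 of 13 in each. Such an interval excludes 0 exactly where the unadjusted p is under 0.05. These are therefore the counts given above, with the same shares over all probe sets (8.12%, 2.54% and 15.7%). The interval was 1.11 log2 units wide for the tightest CESA probe set and 3.71 for the widest. Counted by sign, 11 were lower than mock in arbusculated cells (58.8% of all probe sets were) and 11 in systemic cells (41.3% of all). Groups did not overlap for 2 probe sets in arbusculated against mock cells, both lower, where 20.7% of all probe sets did not overlap and 14% were so and lower. The count was 3 in systemic against mock cells, all lower and belonging to CESA1, CESA3 and CESA4, where 10.2% did not overlap and 3.4% were so and lower. It was 1 in arbusculated against systemic cells, lower, where 32.1% did not overlap and 22.7% were so and lower.

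The dimmer probe sets did not always follow the brighter ones. For CESA4 the dimmer set read 6.53, 5.97 and 6.42 on the mock arrays, 6.50, 6.46 and 6.54 on the systemic arrays and 5.85, 6.21 and 5.51 on the arbusculated arrays. Arbusculated arrays lay below all systemic arrays, with a difference of -0.64 ± 0.24 (adjusted p = 0.175 by limma), and the mock arrays overlapped both. Against mock it differed by -0.45 ± 0.24 in arbusculated cells, on the same side as the brighter set, but by 0.19 ± 0.24 in systemic cells, on the opposite side. The lower level of CESA4 in systemic cells thus rests on the brighter set, and the 2 sets had r = 0.23 over the 9 arrays.

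The dimmer CESA3 set read 5.15, 4.72 and 4.51 on the mock arrays, 2.98, 3.92 and 3.43 on the systemic arrays and 5.96, 3.10 and 5.72 on the arbusculated arrays. All systemic arrays lay below all mock arrays, and arbusculated 2 lay among the systemic values. Systemic cells differed from mock by -1.35 ± 0.69 (95% interval -2.93 to 0.22, adjusted p = 0.969 by limma), and arbusculated from systemic cells by 1.49 ± 0.69 (adjusted p = 0.226). The sets of CESA3 gave r = 0.85 and rho = 0.85 over the 9 arrays (exact permutation p = 0.0048 and 0.00607, adjusted p = 0.096 and 0.121).

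The dimmer CESA1 set read 6.95, 7.10 and 4.92 on the mock arrays, 6.72, 4.19 and 5.85 on the systemic arrays and 7.25, 5.55 and 7.13 on the arbusculated arrays. Its groups overlapped, and it differed from the brighter set in sign for arbusculated against mock cells, at 0.32 ± 0.81. The dimmer CESA2 set read 3.54, 3.36 and 3.87 on the mock arrays, 4.31, 3.44 and 3.97 on the systemic arrays and 3.55, 3.78 and 3.36 on the arbusculated arrays. It stayed within 0.95 log2 units over the 9 arrays and had r = 0.04 with its brighter partner.

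The primary and secondary wall genes were high on different mock arrays. Each representative was centred on its 9-array mean and averaged over its wall class, giving 1.19 for the secondary wall genes on mock 3 and 0.46 and 0.24 on mock 1 and 2. The primary wall genes gave 0.99 on mock 1, 0.41 on mock 2 and -0.05 on mock 3. Mock 3 was the highest of the 9 arrays for 3 of 3 secondary wall genes (7.3% of all probe sets had their highest value there), and mock 1 for 5 of 6 primary wall genes (14.6% of all).

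The arbusculated arrays gave -0.22, -0.35 and -0.55 for the secondary wall genes, all below the mock arrays. For the primary wall genes they gave 0.58, -0.79 and 0.13, so that arbusculated 1 and 3 reached into the mock range and arbusculated 2 was the lowest of all arrays. The systemic arrays gave -0.75, 0.07 and -0.08 for the secondary and -0.64, -0.09 and -0.54 for the primary wall genes. In both classes they too lay below all mock arrays, in the primary class narrowly (-0.09 on systemic 2, -0.05 on mock 3). Group means for the secondary wall genes were 0.63 ± 0.50 (SD, n = 3) in mock, -0.25 ± 0.44 in systemic and -0.37 ± 0.17 in arbusculated cells, and for the primary wall genes 0.45 ± 0.52, -0.42 ± 0.29 and -0.03 ± 0.69.

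The difference of the classes (secondary minus primary) was -0.35 ± 0.68 in arbusculated, 0.17 ± 0.29 in systemic and 0.18 ± 0.94 in mock cells (SD, n = 3). Beside these values, the 3' minus 5' difference was 1.25, 0.73 and 0.36 on arbusculated arrays 1, 2 and 3, 0.42, 0.34 and 0.20 on the mock arrays and -0.07, 0.56 and 0.10 on the systemic arrays. Arbusculated 2, lowest in primary wall genes, lay between the other arbusculated arrays in this measure. The part of RNA quality in the CESA differences was not tested.

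Pairs of genes within a class had higher median correlations over the 9 arrays than pairs across classes, given here as a description, since genes of an array share its RNA and normalisation. The 3 pairs of secondary wall genes had a median Pearson r of 0.80, the 15 primary pairs 0.57 (from -0.23 to 0.86) and the 18 pairs across classes 0.27 (from -0.05 to 0.52). With group means removed the medians were 0.63, 0.42 and -0.15. Of 40 relations computed, the probe set pairs of a gene included, 0 had an adjusted p at or under 0.05 by exact permutation, and 3 primary and 2 secondary gene pairs had an unadjusted p under it.

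CESA3 and CESA5 gave the highest value, r = 0.86 and rho = 0.75 (exact permutation p = 0.00266 and 0.0235, adjusted p = 0.096 and 0.313), and r was 0.88 without arbusculated 2 and systemic 3. CESA4 and CESA9 gave r = 0.81 and rho = 0.58 (exact permutation p = 0.00989 and 0.103, adjusted p = 0.105 and 0.329), and CESA4 and CESA7 gave r = 0.80 and rho = 0.59 (p = 0.0105 and 0.103, adjusted p = 0.105 and 0.329). Without mock 3 and systemic 1 these were 0.43 and 0.51, so both rest in part on those arrays. CESA7 and CESA9 gave r = 0.65 and rho = 0.64 (exact permutation p = 0.0575 and 0.0716, adjusted p = 0.28 and 0.329), and r was 0.45 without mock 1 and mock 3.

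Other genes of the pathway were taken from lists of symbols. For the list counts at an unadjusted p under 0.05 in limma, the shares of all probe sets are repeated here. In arbusculated against mock cells 14.2% of all passed (8.12% passed and were lower). In systemic against mock cells 4.34% passed (2.54% lower), and in arbusculated against systemic cells 23.9% (15.7% lower). Of 35 symbols for partners of cellulose synthesis, 6 genes were measured, and in limma 0 were called in any comparison, with 2 of 6 lower at an unadjusted p under 0.05 in arbusculated against mock cells, and 2 higher and 1 lower in systemic against mock cells. Their median differences from mock were -0.10 in arbusculated and -0.34 in systemic cells. In arbusculated against systemic cells 1 was lower at that unadjusted p, and the median was -0.56. BC1, a COBRA-like protein needed for the assembly of cellulose in rice secondary walls, read 7.20, 7.37 and 7.05 on the mock arrays, 5.93, 5.94 and 6.48 on the systemic arrays and 4.99, 6.74 and 4.82 on the arbusculated arrays. All mock arrays lay above the 6 others. The difference from mock was -1.69 ± 0.47 in arbusculated cells (adjusted p = 0.269 by limma) and -1.09 ± 0.47 in systemic cells (adjusted p = 0.969).

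GDD1, a kinesin that binds microtubules, differed from mock by -0.19 ± 0.44 in arbusculated and -0.49 ± 0.44 in systemic cells. BC1L2, a further COBRA-like gene, averaged 5.08 ± 0.12 (SD, n = 3) on the mock arrays and read 5.77, 5.74 and 6.31 on the systemic arrays and 5.02, 5.18 and 5.00 on the arbusculated arrays. Its systemic arrays lay above all others, opposite to BC1, with a difference of 0.87 ± 0.21 from mock (adjusted p = 0.969 by limma) and of -0.01 ± 0.21 for arbusculated cells.

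For the supply of UDP-glucose, 9 genes of 24 symbols were measured, invertases included, with 0 called in limma. At an unadjusted p under 0.05 there was 1 (higher) in arbusculated and 1 (lower) in systemic against mock cells. The higher gene was an invertase and the lower a sucrose synthase. The median differences from mock were 0.38 in arbusculated and -0.05 in systemic cells. Between arbusculated and systemic cells 2 were higher and 1 lower in the former at that unadjusted p, with a median of 0.52. SUS2, a sucrose synthase, which splits sucrose to give UDP-glucose, differed from mock by 1.19 ± 0.58 in arbusculated and -0.24 ± 0.58 in systemic cells. SUS1, another sucrose synthase, differed by 1.35 ± 0.81 and 0.53 ± 0.81. INV1, an invertase, differed by -0.17 ± 0.53 and -0.69 ± 0.53.

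Of 24 symbols for the synthesis of xylan, the main hemicellulose laid down with cellulose in secondary walls, 8 genes were measured and 0 were called in limma, with 1 (lower) at an unadjusted p under 0.05 in arbusculated against mock cells and 2 (lower) in systemic against mock cells. The medians were 0.08 and -0.26. In arbusculated against systemic cells 2 were higher at that unadjusted p, with a median of 0.54. GT47D, a glycosyltransferase of the GT47 family, read 8.64, 8.36 and 8.47 on the mock arrays, 6.67, 7.02 and 6.74 on the systemic arrays and 7.44, 5.89 and 6.54 on the arbusculated arrays. All mock arrays lay above the 6 others. The difference from mock was -1.86 ± 0.36 in arbusculated cells (adjusted p = 0.124 by limma) and -1.68 ± 0.36 in systemic cells (adjusted p = 0.85).

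GT43E and GT43J belong to the GT43 family, whose members take part in building the xylan backbone. GT43E differed from mock by -0.07 ± 0.49 in arbusculated and -1.35 ± 0.49 in systemic cells, and GT43J by 0.97 ± 0.62 and 0.17 ± 0.62. None of the 34 symbols listed for secondary wall regulators, of the NAC and MYB families, was found in the reference tables, so these were not analysed here.

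Vessels lie outside the cortex and, in rice roots, a ring of sclerenchyma lies at its outer edge, and both form secondary walls, so the markers of other cell types are given beside these values. Of the xylem and sclerenchyma list, 3 of 12 symbols were measured (IRX9, LAC4 and BC1, of which IRX9 is the same gene as GT43C of the xylan list). Their summed linear level ran from 252 to 336 on the mock, 224 to 238 on the systemic and 139 to 289 on the arbusculated arrays. Such a sum mostly follows the brightest probe sets of a list, here and below. Leaving aside BC1, IRX9 differed from mock by -0.02 ± 0.35 in arbusculated and 0.49 ± 0.35 in systemic cells, and LAC4, a laccase, by 0.32 ± 0.56 and -0.11 ± 0.56. Mock 3, highest in secondary wall CESA genes, was also the highest mock array for LAC4, where mock 1 and 2 read 4.36 and 4.47, but read 6.23 for IRX9, where they read 7.39 and 6.02, and was the lowest mock array for BC1.

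The summed linear level of the 3 stele markers ran from 226 to 2182 in mock, 351 to 1511 in systemic and 645 to 1948 in arbusculated cells, and that of the 2 phloem markers from 182 to 573, 312 to 516 and 209 to 654. The 3 genes of the endodermis list gave 896 to 3137, 765 to 2130 and 643 to 3545. LSI1, the only gene measured of the list for outer root layers, gave 677 to 3087, 845 to 1103 and 649 to 5976. Whether either list marks its layer alone was not tested. The 4 markers of dividing cells gave 94.5 to 216 in mock, 118 to 421 in systemic and 168 to 996 in arbusculated cells. They did not move alike in arbusculated against mock cells. PCNA differed by 3.29 ± 0.83, CDKB2-1 by 0.62 ± 0.44, CYCB2-2 by 0.58 ± 1.47 and CYCB2-1 by 0.15 ± 0.41. The 2 measured markers of arbusculated cortex, by their representatives, gave 183 to 222, 181 to 257 and 212 to 434. In limma 0 markers of any list were called by their representatives. For PT11 the representative is not the probe set given earlier, so neither the count nor the sum covers that one. The representative averaged 5.82 in arbusculated and 6.15 in mock cells. The probe set given earlier read 8.30 to 9.43 and 3.56 to 4.20 there. The part of other cell types in the CESA differences was not tested.

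Genes with a pattern like that of the CESA classes were sought among 1398 named genes by Pearson r over the 9 arrays with the mean of CESA4, CESA7 and CESA9. LAC19, a laccase, came first with r = 0.88, with means of 7.15 in mock, 5.87 in systemic and 5.92 in arbusculated cells. It was followed by Chib3H-h (0.83), GT47D (0.80), CML29, a calmodulin-like protein (0.79), and CAO, the chlorophyllide a oxygenase of chlorophyll b synthesis (0.79). With group means removed, r was 0.69 for LAC19, 0.86 for Chib3H-h and 0.24 for GT47D.

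With the mean of CESA1, CESA3 and CESA8, PIP2-2, an aquaporin, had r = 0.91, with means of 9.66 in mock, 8.57 in systemic and 9.22 in arbusculated cells. UEL-3 (0.91), CPK24, a calcium-dependent protein kinase (0.90), CAD8A, of the cinnamyl alcohol dehydrogenase family (0.86), and PAL, a phenylalanine ammonia-lyase (0.85), came next. All 5 had their highest mean in mock and their lowest in systemic cells. The CESA mean they were chosen to resemble has the same order, so this is not a separate result. These values were the highest among many, carry no test and describe only these arrays.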

How the data were processed

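Per the submitters' processing notes RMA was used, and the deposited values are on a log2 scale. Its version was not given in the sources used here. They span 1.52 to 14.06 and entered the fit unaltered, and the 9 arrays correlated at 0.770 to 0.913. From the 57381 probe sets, 123 controls of the array were dropped. The reference tables paired 22436 probe sets with 1 gene, 95 with several and 34727 with none. For arrays their number, 3 per group, limits the precision.

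All 9 arrays entered 1 linear model in limma 3.58.1 (R 4.3.3) with moderated variances, two-sided tests and Benjamini-Hochberg adjustment over 57258 probe sets at 0.05. The fit was tested on simulated data. Where several probe sets were paired with 1 gene and no other, the one whose 9-array mean was highest stood for it. Correlations used exact permutation tests over all orders of the 9 arrays, with ranks and adjusted p taken from scipy 1.17.1. RNA quality was taken from 7 pairs of 3' and 5' control probe sets.

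Named were every CESA probe set, up to 3 genes per pathway list with the highest mean (all called ones, had there been any), and the 5 genes most like each CESA class among named genes with a range of at least 1 log2 unit and a mean above the median. Array values singled out for LAC4, IRX9 and BC1 were chosen after they were seen. The members and lists were chosen with earlier results of these data known.

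The labels do not say whether replicate numbers pair the samples, so the numbers were not used as pairs. Deviations from group means correlated at -0.285 to 0.0388 between arrays of the same replicate number, which cannot settle whether samples were paired. Alternatives were trend and robust moderation, filters on dim or cross-hybridising probe sets, array centring, quantile and cyclic loess normalisation, fits to 6 arrays, array weights, a replicate block, other choices of probe set, and leaving out each array. Protein and promoter sequences were not used here.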

Additional observations from a re-analysis of the deposited data

How the results depend on the processing

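With 3 arrays per group, CESA standard errors of 0.24 to 0.81 log2 units limit what could be called. In limma 0 CESA probe sets were called under every alternative run, the replicate block included (0 of 13 in each comparison and in the F test), and without any array. At an unadjusted p under 0.05 their number ran from 2 to 4 in arbusculated against mock, 1 to 4 in systemic against mock and 0 to 4 in arbusculated against systemic cells, over 19 settings each. Of 696 alternative values for single probe sets, 306 could not move by construction, and of the other 390, 359 kept their sign and 31 did not; the cause of each turn was not tested beyond the array left out. Whether the replicate numbers pair the samples is not stated in the labels, and the replicate block cannot move a difference in this balanced design. With the block 0 CESA probe sets were called, and the number at an unadjusted p under 0.05 in arbusculated against systemic cells was 0 in place of 1. Sequence features of the proteins and promoters were not run.

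In arbusculated against mock cells, signs turned for the brighter CESA1 set without arbusculated 2 (0.035, from -1.27 with any array left out) and the dimmer without mock 3 (-0.38, up to 0.87). The dimmer CESA2 set gave 0.016 with centring, 0.029 with quantile and 0.048 with loess normalisation, 0.07 without arbusculated 3 and 0.11 without mock 3, with -0.14 as the lowest. The brighter CESA3 set gave 0.060 with array weights, 0.20 without arbusculated 2 and 0.0058 without mock 1 (lowest -0.44), and the dimmer gave -0.39 and -0.27 without arbusculated 1 and 3 and -0.01 without mock 3 (highest 1.05). CESA8 gave 0.26 with array weights, 0.34 without arbusculated 2 and 0.16 without mock 2 (lowest -0.67). In systemic against mock cells CESA8 gave 0.16 without mock 2 and 0.05 without systemic 1 (lowest -0.69). In arbusculated against systemic cells CESA1 gave -0.05 and -0.10 without arbusculated 1 and 3 (highest 1.21), CESA2 -0.20 without systemic 2 (highest 0.65), CESA6 -0.16 without arbusculated 1 (highest 0.73), and the brighter CESA4 set -0.0043 without systemic 1 (highest 0.37). CESA8, at a difference within 0.01 of 0 there, gave 0.065 with centring, 0.34 with array weights and 0.56 and 0.47 without arbusculated 2 and systemic 2 (lowest -0.45). CESA9 gave 0.11 with loess, 0.13 without arbusculated 3 and 0.11 and 0.04 without systemic 2 and 3.

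The counts over all probe sets moved more. In arbusculated against mock cells 107 were called, 67 with the dim probe sets filtered out, 44 with the 6 arrays of the comparison, 32 with the replicate block and 20 (without mock 1) to 169 (without mock 2) with an array left out. In arbusculated against systemic cells the counts were 141, 92 with trend and robust moderation, 11 with 6 arrays, 14 with the block, and 25 at the lowest with an array left out (arbusculated 1). In systemic against mock cells 0 were called (2485 at an unadjusted p under 0.05), 3 without mock 2 and 1 without arbusculated 1 or mock 3. Loess normalisation moved the median of all probe sets in arbusculated against systemic cells from -0.17 to -0.04. With all probe sets of PT11 and AMT3;1 averaged, the median of these arbuscule markers against mock was 0.95 in place of 0.34.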
